A study of Rattus norvegicus with 9 samples.

Results

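The NRF2 and glutathione defence genes described here are 9 genes measured by RNA sequencing in rat alveolar macrophages: Nfe2l2, Slc7a11, Gclc, Gclm, Gpx2, Gsta1, Nqo1, Txnrd1 and Srxn1. They were chosen by name, with earlier results of these data known. Each was matched through its RefSeq transcript to a row of the deposited expression values, and all 9 were found among 17109 genes. Each had 1 transcript row, and all 9 were among the 9885 genes tested. Slc7a11 passed the filter on low values only through the NM groups.

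Male Wistar rats, whose age was not given, received nitrogen mustard (NM, given as mechlorethamine hydrochloride, an alkylating agent that injures the lung) at 0.125 mg/kg through the trachea, or phosphate-buffered saline (PBS) by the same route. Alveolar macrophages, which patrol the air spaces and take up particles and dead cells, were taken by massage of the lung. The 3 groups were NM day 28 (28 d after NM), NM day 1 (1 d after NM) and PBS (the controls, whose collection day was not given), each with 3 biological replicates numbered 0, 1 and 2. Both NM groups thus shared 1 set of controls. The title of the study concerns lipid-filled macrophages in the lung fibrosis that follows NM, and the comparisons below ask how the defence genes stood 1 d and 28 d after the injury.

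NRF2, the protein made from Nfe2l2, is a transcription factor that is normally held and marked for destruction by KEAP1. Electrophiles and oxidants, alkylating agents among them, modify KEAP1, and NRF2 then accumulates in the nucleus and binds antioxidant response elements with small MAF proteins. Its known targets make glutathione, conjugate it to electrophiles, and reduce peroxides, quinones and oxidised thioredoxin. Because NRF2 is regulated mainly through the stability of its protein, the mRNA of Nfe2l2 is not a measure of NRF2 activity.

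All 9 genes had at least 1 promoter in the RefSeq table of the build GRCr8, 10 start sites in all. The 250 bases before each start were searched on both strands for TGACNNNGC, the core of the antioxidant response element, and for TGANTCA, the AP-1 element. The core lay before 1 start each of Gclm, Gpx2 and Txnrd1, and TGANTCA lay before Srxn1. For Srxn1, TGAGNNNGC, in which G stands for the C of the core, was added after the promoters had been read. It occurred at -118 to -110 and at -17 to -9 from the start, and no match overlapped another. The 4 stretches are shown because they hold every match among the 10 start sites. All are written 5′ to 3′ on the gene's own strand, with the matches in capitals.
Gclm, chr2:213031923-213032011, plus strand: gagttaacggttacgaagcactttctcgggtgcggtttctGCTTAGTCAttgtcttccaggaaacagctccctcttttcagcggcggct
Gpx2, chr6:101230034-101230086, minus strand: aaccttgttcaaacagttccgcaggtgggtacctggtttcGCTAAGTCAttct
Txnrd1, second start, chr7:22755934-22756022, minus strand: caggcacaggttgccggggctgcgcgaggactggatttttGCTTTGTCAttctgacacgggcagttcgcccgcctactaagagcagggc
Srxn1, chr3:161064654-161064811, plus strand: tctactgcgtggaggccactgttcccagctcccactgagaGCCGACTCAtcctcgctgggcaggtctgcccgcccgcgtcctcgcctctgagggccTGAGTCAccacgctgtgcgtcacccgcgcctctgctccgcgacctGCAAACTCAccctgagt
The core read on the opposite strand in all 3 genes, at -172 to -164 in Gclm, at -13 to -5 in Gpx2 and at -78 to -70 in Txnrd1, and TGANTCA stood at -62 to -56 in Srxn1. Of 33469 promoter windows of this length, 10.1% held TGACNNNGC, 6.34% held TGANTCA and 14.2% held TGAGNNNGC. Nfe2l2, Gclc, Gsta1, Slc7a11 and Nqo1 held no match in these windows. A match describes letters and does not show binding.

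**Figure D1:**
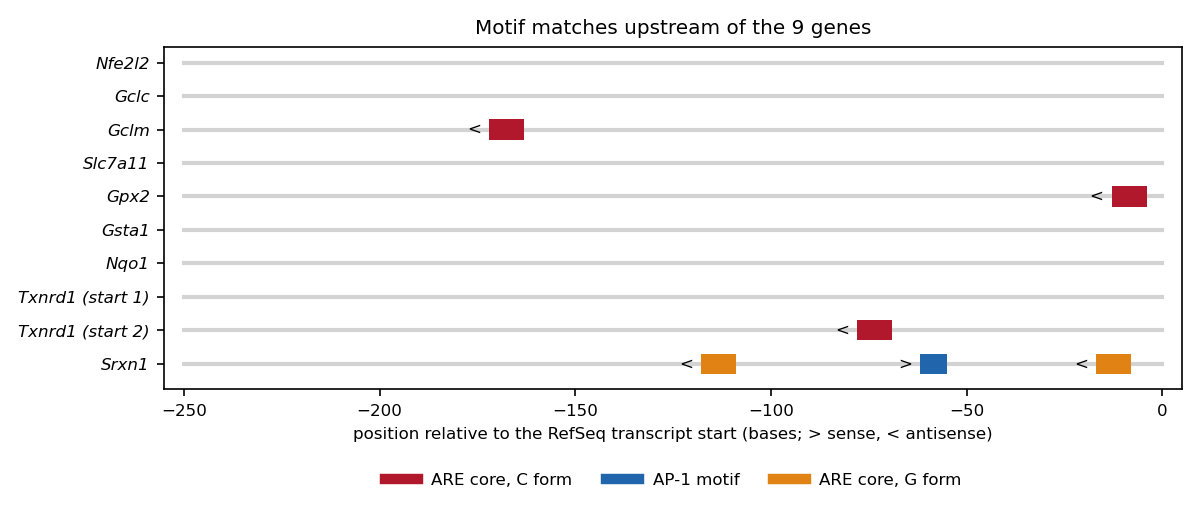
Positions of the 3 motifs before each start site of the 9 genes, in bases from the start (x axis), 1 line for each of 10 promoter windows of 250 bases. Coloured bars show matches, which stand in 4 of the 10 windows, and arrow marks give their strand.

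The libraries held between 11149 and 12516 transcript rows above 0. Total fragments were not given, and a comparison of FPKM values under 1 (their most frequent ratio) put depth, relative to NM day 1 replicate 0, at 1.04 to 1.13 in NM day 28, 1 to 1.47 in NM day 1 and 1.42 to 2.58 in PBS libraries. Spearman correlations over the genes tested were 0.953 to 0.982 for libraries of 1 group and 0.917 to 0.956 for libraries of different groups, and no libraries were identical. Of the markers that define alveolar macrophages, Cd68, Mrc1 and Fabp4 were present in every group, and Marco was listed at 0 in all 9 libraries. Car4, also on that list, was at 0, 0.155 and 0.609 FPKM in PBS libraries. Markers of other cell types were also detected and are given beside the results they moved with. In such bulk samples, fewer cells of a type and less RNA per cell cannot be told apart.

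Levels are given in FPKM, fragments per kilobase of transcript scaled to library size, which can be compared between genes. Differences are on the log2(FPKM + 1) scale with their SE, which understates the change of genes at low levels. A gene was called higher or lower where the limma p, adjusted by Benjamini-Hochberg over all 9885 genes, was under 0.05.

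At NM day 28 against PBS, 5 of the 9 genes were higher (Gclc, Srxn1, Gsta1, Txnrd1 and Nfe2l2) and 0 lower, where 3.07% of all genes tested were higher and 3.98% lower. At NM day 1 against PBS, 4 were higher (Gpx2, Slc7a11, Nfe2l2 and Gsta1) and 0 lower, where 5.28% of all genes were higher and 4.58% lower. Without Slc7a11, which passed the filter only through NM libraries, 3 of the other 8 were higher at day 1. Because the 9 genes were chosen with earlier results of these data known, these counts beside all genes are a description. Nfe2l2 and Gsta1 were called at both days, Gclc, Srxn1 and Txnrd1 at day 28, and Gpx2 and Slc7a11 at day 1. The day 28 count was 1 without NM day 28 replicate 2 or PBS replicate 1, 2 without NM day 28 replicate 0 or PBS replicate 2, and 3 without NM day 1 replicate 1 or PBS replicate 0. The day 1 count was 2 without NM day 1 replicate 0, NM day 1 replicate 1 or PBS replicate 1.

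The median difference over the 9 genes was 0.77 at day 28 and 0.62 at day 1, each against -0.04 over all genes tested. The difference was above 0 for 8 of 9 genes at day 28, Gpx2 being the exception, against 45.7% of all genes, and for 9 of 9 at day 1, against 46.0% of all genes. The 3 NM libraries all lay above the 3 PBS libraries for 7 genes at day 28, where 12.7% of all genes did, and for 5 at day 1, where 15.2% did. Both counts rest on the same PBS libraries. Slc7a11, which passed the filter only through NM libraries, is included in these medians and counts at both days. They were not recomputed without it. As with the calls, the values over all genes stand beside genes chosen with earlier results known, as a description.

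Between the NM groups, NM day 28 against NM day 1, Srxn1 was higher and Gpx2 and Slc7a11 were lower. Slc7a11 entered the test through its NM day 1 level, so its place in these counts is given as a description. Over all genes 4.75% were higher and 6.88% lower. The libraries of the 2 groups did not overlap for Gclm, with day 28 above, and for Gpx2 and Slc7a11, with day 28 below. Of all genes, 15.1% stood apart with day 28 above and 15.7% with day 28 below. The median difference over the 9 genes was 0.20, against -0.00 over all genes, and 6 of the 9 were above 0, against 49.6% of all genes.

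**Figure D2:**
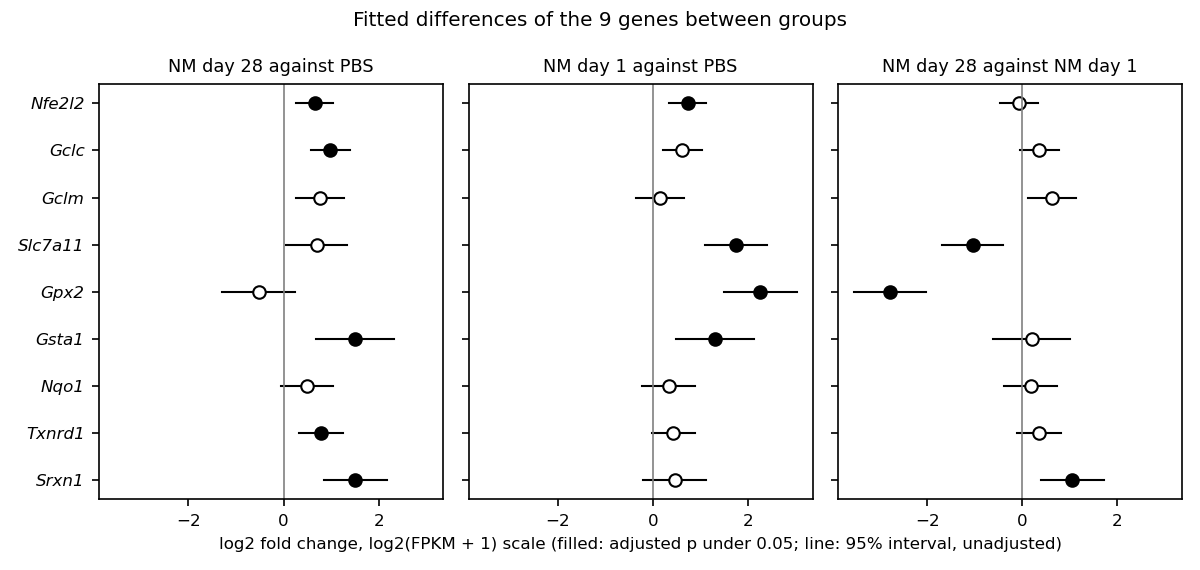
Differences in log2(FPKM + 1) (x axis) of each of the 9 genes (rows) in the 3 comparisons (panels), with unadjusted 95% confidence intervals from limma; filled points are genes called at an adjusted p under 0.05. Gpx2 stood at 2.26 at day 1 against PBS and at -2.79 at day 28 against day 1, while Srxn1 stood at 1.51 at day 28 against PBS.

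Nfe2l2 was at 42.0, 43.0 and 50.2 FPKM in NM day 28 libraries, 58.3, 46.3 and 39.4 FPKM in NM day 1 libraries, and 31.9, 24.1 and 29.0 FPKM in PBS libraries. Every NM library lay above every PBS library, and the NM groups overlapped. The mean level was 45.1 ± 4.48 FPKM at NM day 28, 48.0 ± 9.55 FPKM at NM day 1 and 28.3 ± 3.97 FPKM in PBS (SD, n = 3 each). The difference from PBS was 0.66 ± 0.18 at day 28 (adjusted p = 0.0482) and 0.73 ± 0.18 at day 1 (adjusted p = 0.0259).

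The day 28 call of Nfe2l2 lay close to the threshold and held in 6 of 19 alternatives. It ended with each of 3 NM day 28, 2 NM day 1 (replicates 1 and 2) and 3 PBS libraries left out, with adjusted p from 0.0556 without NM day 1 replicate 2 to 0.206 without PBS replicate 1, and under the replicate block (0.0612). At day 1 it ended without NM day 1 replicate 0 (adjusted p = 0.126), NM day 1 replicate 1 (0.0672) or PBS replicate 1 (0.125).

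**Figure D3:**
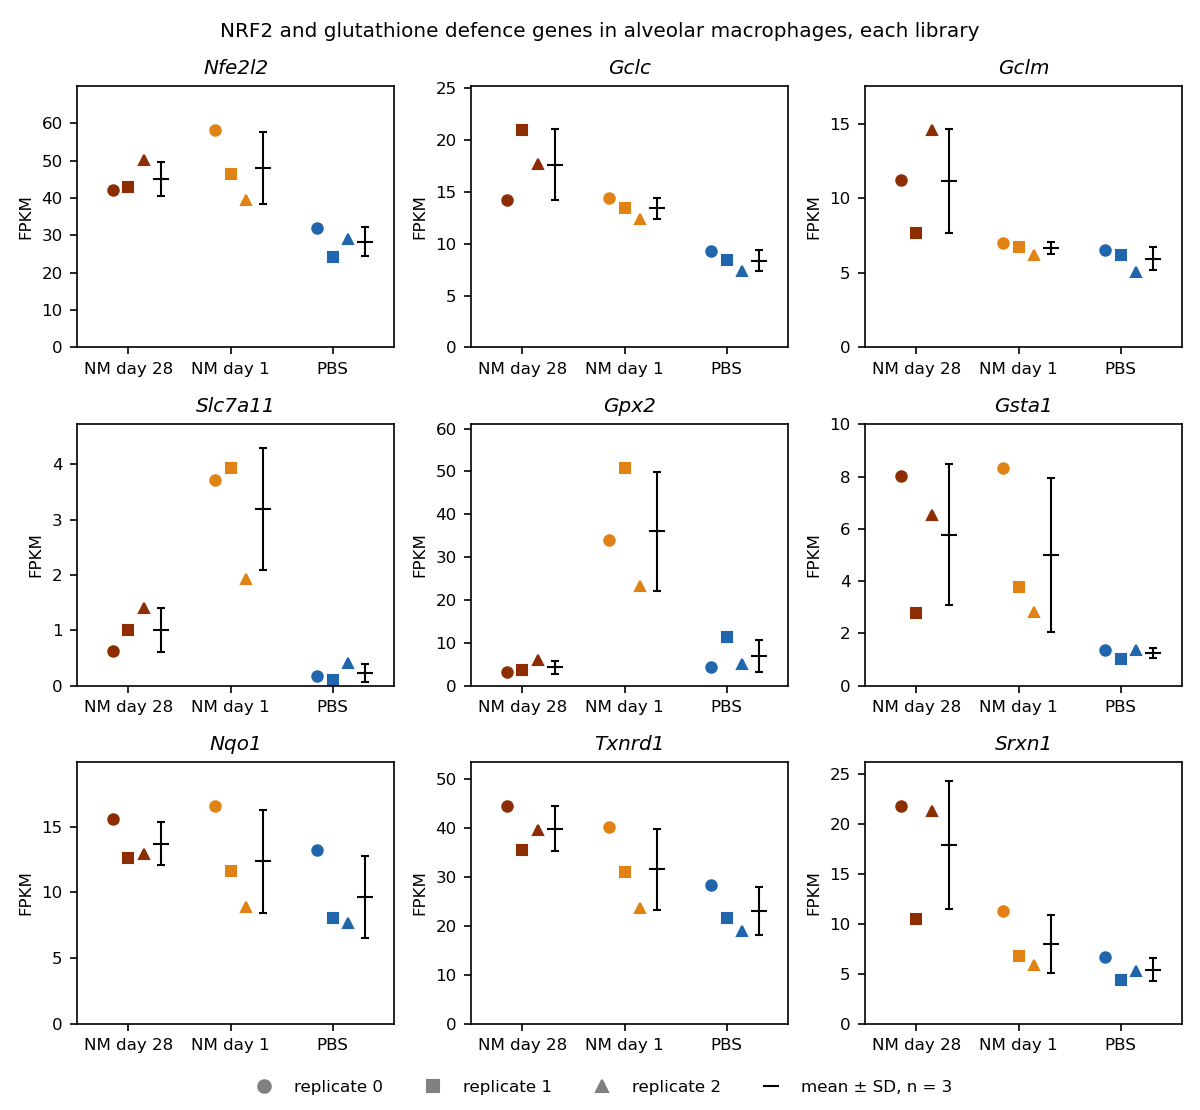
FPKM of each of the 9 genes in every library (points, shaped by replicate) with the group mean ± SD (n = 3), for NM day 28, NM day 1 and PBS from left to right; each panel has its own scale from 0. Gpx2 and Slc7a11 were highest at NM day 1, and Srxn1 had its highest mean at NM day 28.

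Slc7a11 encodes xCT, the light chain of the transporter that imports cystine, whose cysteine limits glutathione synthesis. It was at 0.62, 0.998 and 1.41 FPKM in NM day 28 libraries, 3.71, 3.94 and 1.92 FPKM in NM day 1 libraries, and 0.171, 0.0988 and 0.414 FPKM in PBS libraries. The 3 groups did not overlap, with NM day 1 highest and PBS lowest. All PBS libraries were below the filter's 1 FPKM, so Slc7a11 could enter the test only by being high in NM libraries, and its call against PBS is given as a description. The difference at NM day 1 was 1.74 ± 0.30 (adjusted p = 0.00408).

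At NM day 28 the difference of Slc7a11 from PBS was 0.70 ± 0.30 and did not pass (adjusted p = 0.174). Against NM day 1, NM day 28 was lower by -1.04 ± 0.30 (adjusted p = 0.0411). Of the NM day 28 libraries only replicate 2 reached 1 FPKM, so Slc7a11 met the filter through its NM day 1 level. This call too is therefore given as a description. Because levels were low, the size of the day 1 difference followed the pseudocount, at 3.38 with 0.1 and 0.64 with 5. The fall between the NM days held in 6 of 18 alternatives. It ended with each NM day 28 library, NM day 1 replicates 0 and 1, and PBS replicates 0 and 1 left out, with adjusted p from 0.0503 without NM day 28 replicate 2 to 0.147 without NM day 1 replicate 1, and under the replicate block (0.0664). With quantile normalisation the difference was -0.69 (adjusted p = 0.125).

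Glutamate-cysteine ligase makes the first and rate-limiting bond of glutathione from a catalytic subunit, Gclc, and a modifier subunit, Gclm. Gclc was at 14.2, 21.0 and 17.7 FPKM in NM day 28 libraries, 14.4, 13.4 and 12.4 FPKM in NM day 1 libraries, and 9.33, 8.41 and 7.34 FPKM in PBS libraries. All 6 NM libraries lay above all PBS libraries, and the NM groups overlapped. At day 28 the difference from PBS was 0.98 ± 0.19 (adjusted p = 0.00993), a call that every one of 19 alternatives kept. At day 1 it was 0.62 ± 0.19 and did not pass (adjusted p = 0.0584), although it passed in 2 of 19 alternatives. These were the fit to only the 6 libraries compared (adjusted p = 0.0436) and that without NM day 28 replicate 1 (0.0333). The latter library enters only the shared spread.

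Gclm was at 11.2, 7.66 and 14.6 FPKM in NM day 28 libraries, 7.00, 6.74 and 6.22 FPKM in NM day 1 libraries, and 6.53, 6.21 and 5.08 FPKM in PBS libraries. The lowest day 28 library, replicate 1, stood just above the highest day 1 library, and NM day 1 overlapped PBS. The difference from PBS was 0.77 ± 0.23 at day 28 (adjusted p = 0.0648) and 0.15 ± 0.23 at day 1 (adjusted p = 0.746). Without NM day 28 replicate 1 the day 28 difference passed, with an adjusted p of 0.0151 against PBS and 0.0208 against NM day 1.

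The FPKM ratio of Gclc to Gclm was 1.27, 2.74 and 1.22 in NM day 28 libraries, 2.06, 1.99 and 1.99 in NM day 1 libraries, and 1.43, 1.35 and 1.45 in PBS libraries. The ratio was above that of every PBS library in all 3 day 1 libraries. At day 28 only replicate 1 was, and the other 2 libraries lay below PBS.

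Gpx2 encodes a selenium-dependent glutathione peroxidase that is known mainly from epithelial cells. It was at 3.14, 3.6 and 6.0 FPKM in NM day 28 libraries, 33.9, 50.9 and 23.2 FPKM in NM day 1 libraries, and 4.37, 11.3 and 5.01 FPKM in PBS libraries. Every NM day 1 library was above all others, and NM day 28 overlapped PBS. The mean FPKM at day 1 was 5.23 times that of PBS, with a difference of 2.26 ± 0.35 (adjusted p = 0.00226). At day 28 the difference from PBS was -0.52 ± 0.35 (adjusted p = 0.402) and that from NM day 1 was -2.79 ± 0.35 (adjusted p = 0.00064). The call at day 1 against PBS and the call between the NM days were kept in all 19 alternatives.

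Most tested markers of alveolar epithelium stood higher at NM day 1 than in the other groups, as Gpx2 did. The summed FPKM of 16 alveolar epithelial markers was 298 to 403 in NM day 28, 1059 to 3118 in NM day 1 and 258 to 434 in PBS libraries, with Sftpd listed at 0 in all 9. Of 15 tested, 9 were higher at NM day 1 than in PBS (against 5.28% of all genes), Sftpc, Sftpb and Cdh1 among them, and 12 were lower at NM day 28 than at NM day 1 (against 6.88% of all genes). Napsa was higher at NM day 28 than at NM day 1 (0.84, adjusted p = 0.0128). At NM day 1, Napsa (-0.37) and Etv5 (-0.63) lay below PBS without overlap, and neither difference passed. At NM day 28, 1 was higher than in PBS (Hopx, against 3.07% of all genes) and 3 were lower (Aqp5, Krt18 and Krt19, against 3.98%). The sum of 7 airway epithelial markers was 917 to 1459 in NM day 28, 1577 to 3695 in NM day 1 and 1606 to 8537 in PBS libraries. Of 7 tested, 4 were lower at NM day 28 (against 3.98% of all genes) and 1 at NM day 1 (against 4.58% of all genes) than in PBS, and 2 were lower at NM day 28 than at NM day 1. Within groups, replicate 1 was highest for both Gpx2 and the airway sum at NM day 1 and in PBS, while at NM day 28 Gpx2 was highest in replicate 2 and the airway sum in replicate 0. The alveolar sum at NM day 1 was highest in replicate 0, at 3118, against 1479 in replicate 1. The part of these cells in the Gpx2 result was not tested.

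Gsta1 encodes an alpha-class glutathione S-transferase, which joins glutathione to electrophiles. It was at 8.03, 2.77 and 6.54 FPKM in NM day 28 libraries, 8.34, 3.77 and 2.83 FPKM in NM day 1 libraries, and 1.36, 1.03 and 1.35 FPKM in PBS libraries. All NM libraries lay above all PBS libraries, with a wide spread inside both NM groups. Gsta1 was higher than in PBS by 1.50 ± 0.37 at day 28 (adjusted p = 0.0335) and by 1.31 ± 0.37 at day 1 (adjusted p = 0.047). RefSeq gives this gene the synonyms Gsta3 and Yc1, Gsta2 and Gsta5 were listed at 0 in all libraries, and reads may have been shared among alpha-class copies, so both the identity behind the row and its level are uncertain.

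The day 1 call of Gsta1 held in 8 of 19 alternatives and the day 28 call in 11 of 19. At day 1 it ended without NM day 28 replicate 2, without NM day 1 replicate 0 or 1, and without each PBS library, with adjusted p from 0.0585 without NM day 28 replicate 2 to 0.205 without NM day 1 replicate 0. At day 28 it ended without NM day 28 replicate 0 or 2 and without each PBS library, with adjusted p from 0.0621 without PBS replicate 2 to 0.122 without PBS replicate 1. With a pseudocount of 5 the difference was 0.75 at day 28 and 0.64 at day 1.

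Nqo1 encodes a quinone reductase and is a widely used readout of NRF2. It was at 15.6, 12.6 and 12.9 FPKM in NM day 28 libraries, 16.6, 11.6 and 8.89 FPKM in NM day 1 libraries, and 13.2, 8.08 and 7.63 FPKM in PBS libraries. Both NM groups overlapped PBS. Nqo1 differed from PBS by 0.50 at day 28, with a 95% interval from -0.05 to 1.05 (adjusted p = 0.255), and by 0.33 at day 1, with an interval from -0.23 to 0.88 (adjusted p = 0.463).

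Txnrd1 encodes the cytosolic thioredoxin reductase, a selenoprotein that keeps thioredoxin reduced. It was at 44.6, 35.5 and 39.6 FPKM in NM day 28 libraries, 40.2, 31.0 and 23.6 FPKM in NM day 1 libraries, and 28.4, 21.6 and 19.0 FPKM in PBS libraries. NM day 28 lay above PBS without overlap, and NM day 1 overlapped both. The difference from PBS was 0.78 ± 0.21 at day 28 (adjusted p = 0.0469) and 0.43 ± 0.21 at day 1 (adjusted p = 0.235). The day 28 call held in 10 of 19 alternatives. It ended without NM day 28 replicate 0 (0.128) or 2 (0.109), NM day 1 replicate 1 (0.0655), or PBS replicate 1 (0.162) or 2 (0.113), each value an adjusted p.

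Srxn1 encodes sulfiredoxin, which restores over-oxidised peroxiredoxins. It was at 21.8, 10.5 and 21.3 FPKM in NM day 28 libraries, 11.3, 6.76 and 5.85 FPKM in NM day 1 libraries, and 6.67, 4.31 and 5.23 FPKM in PBS libraries. NM day 28 lay above PBS without overlap, and its replicate 1 lay below the highest NM day 1 library. The difference from PBS was 1.51 ± 0.30 at day 28 (adjusted p = 0.0122), a 3.31-fold ratio of mean FPKM, and 0.46 ± 0.30 at day 1 (adjusted p = 0.38). NM day 28 was higher than NM day 1 by 1.05 ± 0.30 (adjusted p = 0.0434).

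The day 28 rise of Srxn1 against PBS held in 17 of 19 alternatives and ended without NM day 28 replicate 2 (adjusted p = 0.0517) or PBS replicate 1 (0.0598). The difference between the NM days held in 9 of 19. It ended without NM day 28 replicate 0 (0.14) or replicate 2 (0.136), NM day 1 replicate 1 (0.137) or 2 (0.143), or PBS replicate 1 (0.0577) or 2 (0.0522).

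The libraries of NM day 28 and of PBS did not follow 1 order over the 9 genes, while those of NM day 1 nearly did. Among NM day 28 libraries, replicate 1 was the lowest for Gclm, Gsta1, Nqo1, Txnrd1 and Srxn1 but the highest for Gclc, and replicate 0 was the highest for 4 genes and the lowest for 4 others. Among NM day 1 libraries, replicate 2 was the lowest for all 9 genes. The 9 genes thus largely moved together within that group and are not 9 independent observations. In both the NM day 1 and the PBS group, replicate 0 was the highest for the same 7 genes, which leaves Gpx2 and Slc7a11. The relative depths of those replicate 0 libraries were 1 in NM day 1 and 2.58 in PBS. NM day 28 replicate 1 also had the lowest summed FPKM of 10 neutrophil markers, 211, against 606 and 723 in replicates 0 and 2. Their part in the order of the libraries was not tested.

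In every group Nfe2l2 had the highest mean level of the 9 and Slc7a11 the lowest. In NM day 28 the order was Nfe2l2, Txnrd1, Srxn1, Gclc, Nqo1, Gclm, Gsta1, Gpx2 and Slc7a11, and only the steps from Txnrd1 to Srxn1 and from Gpx2 to Slc7a11 were free of overlap between neighbours. In NM day 1 it was Nfe2l2, Gpx2, Txnrd1, Gclc, Nqo1, Srxn1, Gclm, Gsta1 and Slc7a11, with the one step free of overlap between Txnrd1 and Gclc. In PBS it was Nfe2l2, Txnrd1, Nqo1, Gclc, Gpx2, Gclm, Srxn1, Gsta1 and Slc7a11, with no overlap from Txnrd1 to Nqo1, from Srxn1 to Gsta1 and from Gsta1 to Slc7a11.

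Against all genes tested, the mean FPKM of Srxn1 stood at percentile 52.0 in NM day 28, 29.1 in NM day 1 and 23.8 in PBS. Gpx2 stood at percentile 19.8 in NM day 28, 72.4 in NM day 1 and 28.0 in PBS. Slc7a11 stood at percentile 5.46 in NM day 28, 13.1 in NM day 1 and 0.88 in PBS. Srxn1 thus had its highest place at day 28, and Gpx2 and Slc7a11 had theirs at day 1.

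The other genes of the pathway were read from 7 lists of 94 genes, of which 88 were in the file and 70 were tested. These lists too were chosen with earlier results of these data known. At NM day 28 against PBS, 5 were higher (7.14%, against 3.07% of all genes) and 0 lower (against 3.98% of all genes), with a median difference of -0.04. At NM day 1 against PBS, 0 were higher (against 5.28% of all genes) and 1 was lower (1.43%, against 4.58%), with a median of -0.10. At NM day 28 against NM day 1, 6 were higher (8.57%, against 4.75% of all genes) and 1 was lower (1.43%, against 6.88%), with a median of 0.02. The medians of all genes tested were -0.04, -0.04 and -0.00 in the same order. The share of all genes with an unadjusted limma p under 0.05 was not computed, so the counts at that level below have no background.

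Of the 12 regulators of NRF2 tested, 0 were called in either comparison with PBS, where 2 in each had an unadjusted limma p under 0.05. Among so few genes, 0 calls lie near the shares of all genes called against PBS, 3.07% to 5.28% in 1 direction. Keap1, the NRF2 repressor, was at 33.6, 18.7 and 32.7 FPKM in NM day 28 libraries, 23.6, 26.0 and 26.4 FPKM in NM day 1 libraries, and 38.6, 34.5 and 33.5 FPKM in PBS libraries. NM libraries were below the PBS range except for replicate 0 of NM day 28, which lay just inside it, and neither difference passed (adjusted p = 0.328 at day 28 and 0.182 at day 1). Mafg, a small MAF partner of NRF2, was higher at NM day 28 than at NM day 1 by 0.57 ± 0.16 (adjusted p = 0.0348), at 98.2, 97.4 and 123 FPKM in NM day 28 libraries and 69.4, 78.0 and 65.3 FPKM in NM day 1 libraries. That call held in 11 of 19 alternatives and ended under the replicate block (0.0508). It also ended with any of 6 libraries left out, all 3 of NM day 1 among them, with an adjusted p of up to 0.129. In PBS libraries Mafg was at 74.4, 88.3 and 90 FPKM, below NM day 28 and overlapping NM day 1. Neither difference from PBS passed (adjusted p = 0.228 at day 28 and 0.36 at day 1).

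Of 7 genes of glutathione synthesis, cystine supply and turnover tested, 0 were called in any comparison, and 1 in each had an unadjusted limma p under 0.05. In this list and the next, 0 calls among so few genes lie near the shares of all genes called, 3.07% to 6.88% in 1 direction. Slc3a2, the heavy chain that pairs with the Slc7a11 product, was at 123, 117 and 109 FPKM in NM day 28 libraries, 109.9, 125 and 129 FPKM in NM day 1 libraries, and 192, 155 and 125 FPKM in PBS libraries. Every NM day 28 library lay below every PBS library, NM day 1 overlapped PBS, and neither difference passed (adjusted p = 0.163 at day 28 and 0.217 at day 1). Of the 6 peroxidases, reductase and glutaredoxins tested, 0 were called in any comparison, with 1, 2 and 1 at an unadjusted limma p under 0.05 at NM day 28 against PBS, NM day 1 against PBS and NM day 28 against NM day 1. Gpx1 was listed at 0 in all 9 libraries, which may be a failed estimate.

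Of 13 other glutathione S-transferases tested, Gstp1, the pi-class enzyme, was higher at NM day 28 than in PBS. It was at 61.3, 65.9 and 79.6 FPKM in NM day 28 libraries, 55.1, 32.8 and 48.2 FPKM in NM day 1 libraries, and 13.2, 37.3 and 23.8 FPKM in PBS libraries. NM day 28 lay above both other groups, by 1.55 ± 0.31 against PBS (adjusted p = 0.0118), a call kept in all 19 alternatives. Gsto1, an omega-class enzyme, was higher at NM day 28 than at NM day 1 by 0.96 ± 0.19 (adjusted p = 0.00697). It was at 385, 261 and 357 FPKM in NM day 28 libraries, 167, 155 and 186 FPKM in NM day 1 libraries, and 279, 256 and 199 FPKM in PBS libraries. NM day 28 overlapped PBS, and NM day 1 lay below PBS without overlap. Neither difference from PBS passed, at 0.44 at day 28 (adjusted p = 0.177) and -0.52 at day 1 (adjusted p = 0.105).

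The 13 thioredoxins and peroxiredoxins tested include the partners of the Txnrd1 and Srxn1 products. Of these, 0 were called against PBS at either day, with 2 at each day at an unadjusted limma p under 0.05. Among so few genes this lies near the shares of all genes called against PBS, 3.07% to 5.28% in 1 direction. Txnip, an inhibitor of thioredoxin, was lower at NM day 28 than at NM day 1 by -0.87 ± 0.22 (adjusted p = 0.0263). It was at 118, 113 and 126 FPKM in NM day 28 libraries and 265, 165 and 234 FPKM in NM day 1 libraries. PBS libraries, at 211, 167 and 118 FPKM, overlapped both groups. This call ended with replicate 0 (adjusted p = 0.0719) or 2 (0.0595) of NM day 28 left out, and with replicate 0 (0.106) or 2 (0.0858) of NM day 1 left out. Of the 3 superoxide and hydrogen peroxide enzymes tested, 0 were called in any comparison, with 1 at an unadjusted limma p under 0.05, at NM day 28 against PBS. Among 3 genes, 0 calls lie near the shares of all genes as well.

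Of the 16 quinone, carbonyl, haem and NADPH enzymes tested, 4 were higher at NM day 28 than in PBS (against 3.07% of all genes), Pgd, Idh1 and Akr1b8 among them. Pgd, phosphogluconate dehydrogenase, was at 179, 121 and 192 FPKM in NM day 28 libraries, 126, 122 and 123 FPKM in NM day 1 libraries, and 87.8, 104 and 75.4 FPKM in PBS libraries. NM day 28 lay above PBS without overlap, by 0.86 ± 0.19 (adjusted p = 0.0188), and overlapped NM day 1. Idh1, cytosolic isocitrate dehydrogenase, was higher at NM day 28 by 0.76 ± 0.18 against PBS (adjusted p = 0.0274) and by 0.76 ± 0.18 against NM day 1 (adjusted p = 0.0184).

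The Pgd call ended without NM day 28 replicate 0 (adjusted p = 0.0706) or 2 (0.0779), or PBS replicate 0 (0.0502) or 2 (0.0507). The Idh1 call against PBS ended without NM day 28 replicate 0 (0.0798) or 2 (0.0986), or PBS replicate 1 (0.115) or 2 (0.0623). Its call against NM day 1 ended with NM day 28 replicate 0 (0.0623) or 2 (0.0743) left out, and with NM day 1 replicate 1 (0.0786) or 2 (0.0651) left out.

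Akr1b8, an aldo-keto reductase whose reads may be shared with near copies, had the widest ratio to PBS of these 3. It was at 55.1, 6.98 and 50.3 FPKM in NM day 28 libraries, 6.53, 7.63 and 3.12 FPKM in NM day 1 libraries, and 1.93, 1.23 and 2.96 FPKM in PBS libraries. NM day 28 lay above PBS in every library, but replicate 1 stood inside the NM day 1 range, as it did for Srxn1. The difference from PBS was 3.26 ± 0.60 (adjusted p = 0.00777, kept in all 19 alternatives) and that from NM day 1 was 2.14 ± 0.60 (adjusted p = 0.0391). The second call ended with NM day 28 replicate 0 (0.136) or 2 (0.134) left out, and with NM day 1 replicate 0 (0.0896), 1 (0.0733) or 2 (0.132) left out.

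Akr1a1, a broad aldehyde reductase, was higher at NM day 28 than at NM day 1 by 0.76 ± 0.17 (adjusted p = 0.0159). That call ended without NM day 28 replicate 0 (0.0693) or NM day 1 replicate 1 (0.0699). The PBS libraries of Akr1a1 lay between the NM groups without overlap, below NM day 28 and above NM day 1. Neither difference from PBS passed, at 0.34 at day 28 (adjusted p = 0.259) and -0.42 at day 1 (adjusted p = 0.16). Blvra, biliverdin reductase, was lower at NM day 1 than in PBS by -0.76 ± 0.18 (adjusted p = 0.0222), at 272, 265 and 336 FPKM in NM day 1 libraries and 555, 509.7 and 419.6 FPKM in PBS libraries. That call ended without NM day 1 replicate 0 (0.103) or 1 (0.0774), or PBS replicate 0 (0.0716) or 1 (0.0953), and with quantile normalisation the difference was -0.48 (0.109).

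Hmox1, the inducible haem oxygenase and a known NRF2 target, was at 484, 259 and 472 FPKM in NM day 28 libraries, 306, 399 and 415 FPKM in NM day 1 libraries, and 374, 200.4 and 146 FPKM in PBS libraries. The NM groups overlapped PBS through its replicate 0, and neither difference passed (adjusted p = 0.152 at day 28 and 0.179 at day 1).

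**Figure D4:**
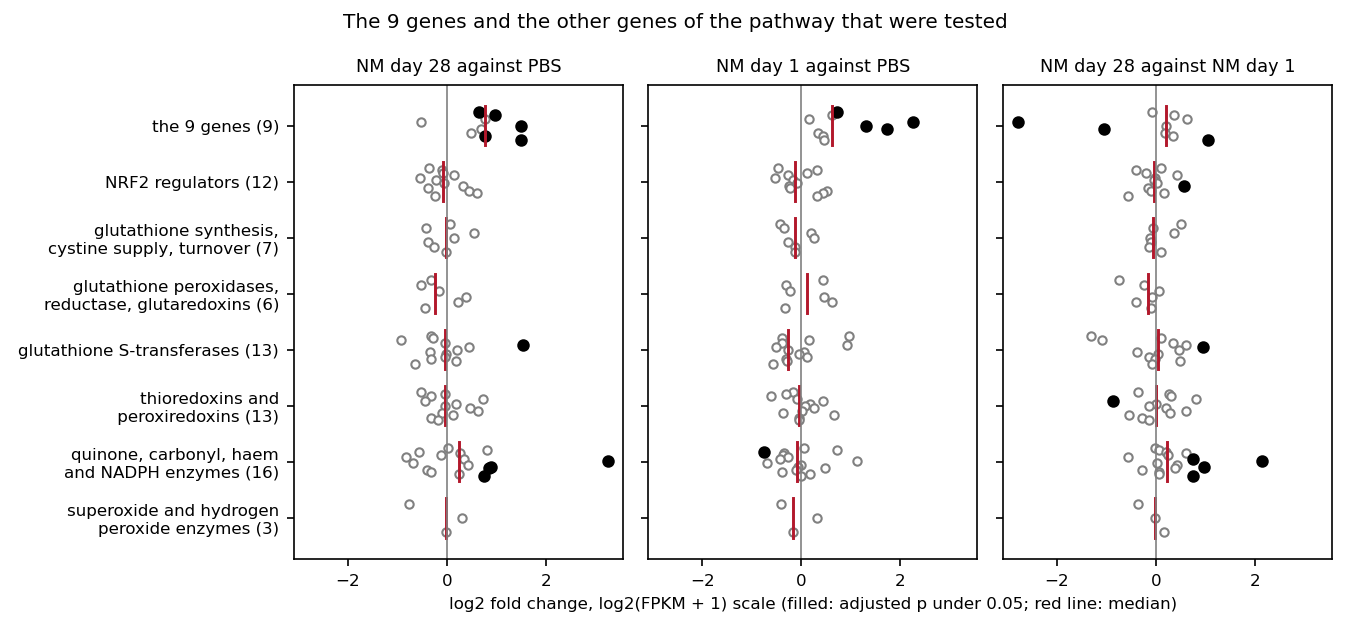
Differences in log2(FPKM + 1) (x axis) of the 9 genes and of the 70 other tested pathway genes by list (rows, number tested in brackets), in the 3 comparisons (panels). Filled points are called genes and the red line marks each row's median. The called pathway genes against PBS include Akr1b8, Pgd, Idh1 and Gstp1 at NM day 28, and Blvra is the called gene at NM day 1.

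Some markers of blood-derived cells also moved with the NM groups. The summed FPKM of 10 neutrophil markers was 211 to 723 in NM day 28, 532 to 906 in NM day 1 and 72.5 to 107 in PBS libraries, with Ltf at 0 in NM day 28 and Retnlg and Ltf at 0 in PBS libraries. Of 7 tested, 4 were higher at NM day 28 (against 3.07% of all genes) and 5 at NM day 1 (against 5.28% of all genes) than in PBS. The differences of Camp and Ngp lay below 0 and did not pass, at -0.64 and -0.65 at NM day 28 (adjusted p = 0.215 and 0.344) and -0.36 and -0.31 at NM day 1 (adjusted p = 0.499 and 0.673). The sum of 10 monocyte and recruited macrophage markers was 195 to 269 in NM day 28, 317 to 355 in NM day 1 and 164 to 212 in PBS libraries, with Ccr2 and Ly6c at 0 in PBS. Of 9 tested, 2 were higher at NM day 28 and 6 at NM day 1 than in PBS, against the same 3.07% and 5.28% of all genes. At NM day 28, 5 of the 9 differences from PBS lay above 0. Those of Plac8 (-0.69), Cx3cr1 (-0.52), Vcan (-0.44) and Fcgr1a (-0.22) lay below 0 and did not pass. Fcgr1a and Cd14, the markers with the highest levels in this sum, were not called against PBS at either day.

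The sum of 10 T and natural killer cell markers was 20.6 to 33.9 in NM day 28, 93.7 to 99 in NM day 1 and 19.1 to 23.2 in PBS libraries, with Cd3e at 0 in NM day 28 and PBS. Of 8 tested, 0 were higher at NM day 28 and 4 at NM day 1 than in PBS, again against 3.07% and 5.28% of all genes. At NM day 28, 2 had an unadjusted limma p under 0.05, Nkg7 above PBS (0.88) and Cd8a below it (-0.87). The sum of 8 resident alveolar macrophage markers was 1834 to 2061 in NM day 28, 1624 to 1824 in NM day 1 and 1557 to 2940 in PBS libraries. The PBS range overlapped both NM ranges, and every NM day 28 library lay above every NM day 1 library. Of 7 tested, Chi3l1 and Car4 were higher than in PBS at both days, Mrc1 was lower at NM day 28 (-0.73 ± 0.18, adjusted p = 0.0323) and Pparg was lower at NM day 1 (-0.57 ± 0.15, adjusted p = 0.0315). The part of these cells in the 9 genes' differences was not tested.

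**Figure D5:**
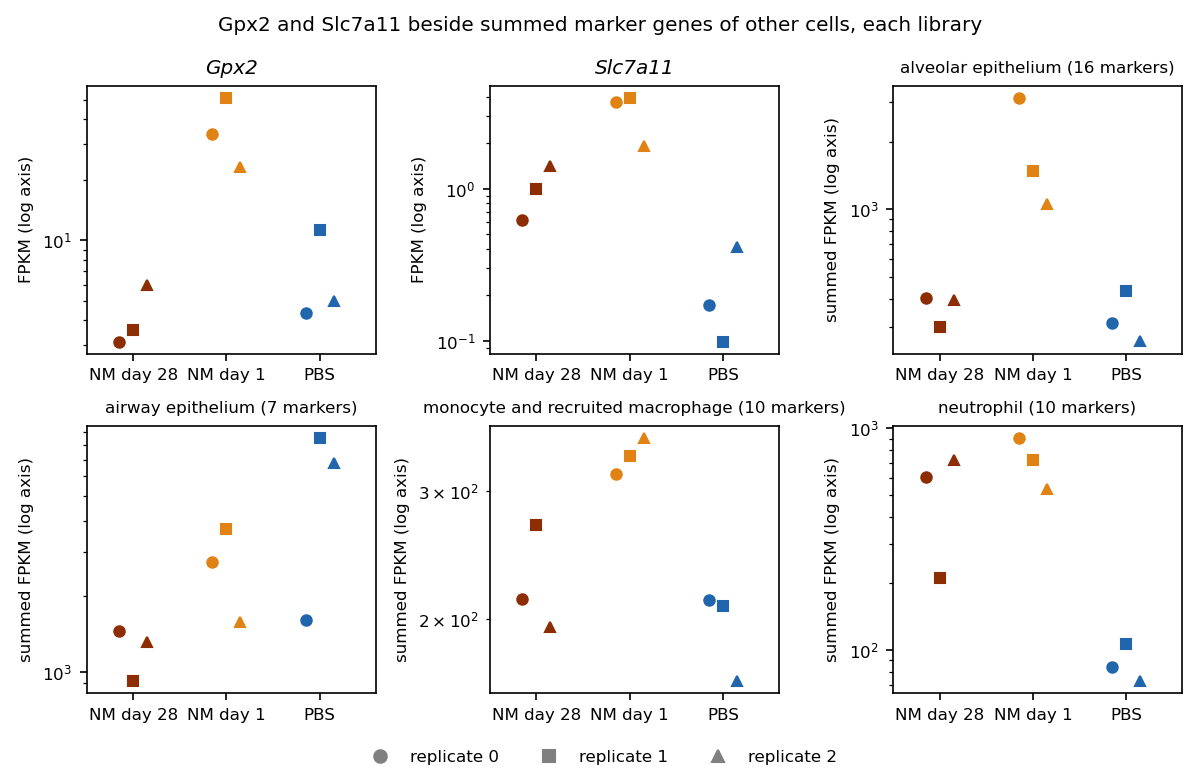
FPKM of Gpx2 and Slc7a11 and summed FPKM of 4 marker lists in every library (points shaped by replicate, log axes), for NM day 28, NM day 1 and PBS from left to right. At NM day 1 the alveolar epithelial sum, 1059 to 3118, and the monocyte and recruited macrophage sum, 317 to 355, lay above both other groups, as Gpx2 and Slc7a11 did.

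For each of the 7 genes called at least once, the genes with the most similar pattern were found by the root mean square difference of centred log2(FPKM + 1) over the 9 libraries. For Gpx2, whose own spread about its mean was 1.29, they were Spint1 (0.37), Btg3 (0.39) and Cdh1 (0.42). Cdh1, the epithelial adhesion molecule E-cadherin, was at 0.993, 0.44 and 0.539 FPKM in NM day 28 libraries, 6.66, 9.06 and 6.85 FPKM in NM day 1 libraries, and 0.997, 1.59 and 0.906 FPKM in PBS libraries. For Slc7a11, with a spread of 0.76, they were Rbpj (0.16), Irf4 (0.19) and Anxa3 (0.20).

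For Srxn1, with a spread of 0.73, the nearest were Serpinb6a (0.27), Cstb (0.28) and S100a5 (0.30). S100a5 had low values, at 2.01, 0 and 1.95 FPKM in NM day 28 libraries and 1.12, 0 and 0 FPKM in NM day 1 libraries. It was at 0 in every PBS library. Cstb, an inhibitor of lysosomal cysteine proteases, was at 929.5, 776 and 925 FPKM in NM day 28 libraries, 662, 379 and 439 FPKM in NM day 1 libraries, and 541, 349.5 and 317 FPKM in PBS libraries. For Txnrd1, with a spread of 0.40, they were Il1rn (0.10), Azin1 (0.10) and Nqo1 (0.14), the last being 1 of the 9 genes. For Nfe2l2, with a spread of 0.37, they were Tmem123 (0.11), Jak3 (0.11) and Tec (0.12). For Gclc, with a spread of 0.43, they were Gk (0.15), Memo1 (0.16) and Hectd2 (0.17), and for Gsta1, with a spread of 0.80, Mreg (0.21), Slc40a1 (0.23) and Gfi1b (0.28).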

How the data were processed

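RNA of alveolar macrophages was sequenced as paired ends from TruSeq libraries, per the labels' protocols. Per the submitters' processing notes, TopHat, Cuffdiff and the rat build rn4 were used. Their versions, the annotation and the strand are not given in the sources used here. FPKM values were deposited by the authors for 18197 RefSeq transcripts in each of 9 libraries. The authors' list of significant isoforms, which the labels mention, was not analysed here.

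Gene symbols were matched through RefSeq (build GRCr8), which named 17189 transcript rows (94.5%), and rows of 1 symbol were summed to 17109 genes. Promoter sequences are from RefSeq, GRCr8. Since the builds differ, no coordinate was carried between them. Protein sequences were not used here.

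Genes with at least 1 FPKM in at least 3 of 9 libraries (9885, 576 of them without a symbol) entered 1 limma fit (lmFit, eBayes with trend; limma 3.58.1, R 4.3.3). The model, on log2(FPKM + 1), had a mean for each of 3 groups and 1 spread for all 9 libraries. P-values were adjusted by Benjamini-Hochberg over all genes tested. FPKM are not counts, so no count model was used, and low values rest on few fragments. P-values measure the spread between libraries described as biological replicates. Figures were drawn with matplotlib 3.10.9, and tables made with pandas 2.3.3 and numpy 2.4.6 in Python 3.11.15.

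The members and lists were chosen with earlier results of these data known. The genes named are the 9 members, at most 3 called genes a list and comparison, by smallest p, the 3 genes nearest in pattern to each called member, and markers beside a result. Idh1 at day 28 against PBS, Akr1b8 between the NM days, Keap1, Slc3a2, Hmox1 and Gpx1 were named once their values had been seen. A gene that the rule picks is not reported here.

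The 19 alternatives were a fit without each of the 9 libraries, robust eBayes, a fit to only the 6 libraries compared, a block for the replicate number, single isoforms, quantile normalisation or median-of-ratios scaling, a filter of 5 FPKM or none, and a pseudocount of 0.1 or 5. Their application to pathway genes was added after seeing the data.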

Additional observations from a re-analysis of the deposited data

Results flagged for a closer look

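Members were flagged where the effects of NM at the 2 days differed, as tested by NM day 28 against NM day 1 in limma. The shared PBS mean cancels from the difference, but the PBS libraries still enter the shared spread and so the p-value. Gpx2 differed by -2.79 (adjusted p = 0.00064), Slc7a11 by -1.04 (adjusted p = 0.0411) and Srxn1 by 1.05 (adjusted p = 0.0434), on the log2(FPKM + 1) scale. The first 2 were lower and Srxn1 higher at day 28. Slc7a11 passed the filter through its NM day 1 level, so its difference is given as a description. The Gpx2 libraries of the 2 days did not overlap, nor did those of Slc7a11, while NM day 28 replicate 1 lay inside the day 1 range of Srxn1. With only the 6 NM libraries fitted, the calls of Slc7a11 (adjusted p = 0.0672) and Srxn1 (0.0641) ended, and that of Gpx2 was kept.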

How the results depend on the processing

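Over 19 alternatives the 12 calls of the 9 genes kept their direction, and 4 were kept wherever they were tested. The 4 include the call of Slc7a11 at NM day 1 against PBS, for which the filter selected. Leaving out 1 library moved the members higher at NM day 28 against PBS between 1 and 5, those at NM day 1 against PBS between 2 and 5, and those at NM day 28 against NM day 1 between 0 and 2 higher and between 1 and 2 lower. A filter of 5 FPKM, which Slc7a11 does not pass, left 2 higher at NM day 1 against PBS. At NM day 28 against PBS 3 were higher with a pseudocount of 5, 2 with no filter, 2 with isoforms tested singly and 3 with only the 6 libraries compared. Between the NM days 0 were higher with a pseudocount of 0.1, no filter, isoforms tested singly or only the 6 libraries. There 1 was lower with a pseudocount of 0.1, the filter of 5 FPKM, quantile normalisation, isoforms tested singly, the replicate block or only the 6 libraries. The cause of these shifts was not tested.

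Pathway genes at NM day 28 against PBS were 9 higher with quantile normalisation, 3 with only the 6 libraries, and 3 to 5 higher and 0 to 1 lower without 1 library. At NM day 1 against PBS they were 3 higher and 0 lower with quantile normalisation, 1 higher with only the 6 libraries, and 0 to 4 higher and 0 to 5 lower without 1 library. Between the NM days they were 2 lower with no filter or quantile normalisation, and 2 to 8 higher and 0 to 2 lower without 1 library.

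Signs turned only for differences that were not called. Gclm at NM day 1 against PBS was -0.01 with quantile normalisation. Between the NM days, without 1 library, Nfe2l2 ran from -0.20 to 0.07, Gsta1 from -0.07 to 0.57 and Nqo1 from -0.02 to 0.39, with Gsta1 at -0.06 without NM day 28 replicate 0.

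Deviations of libraries with the same replicate number correlated between -0.104 and 0.196, 3 of 9 above 0.1. The numbers are not stated to mark a shared animal or day. These correlations did not show a pairing, but they cannot exclude one. With the replicate block 4 members were higher at each day against PBS. Over all genes, leaving out 1 library gave 154 to 367 higher (303 with all 9) and 117 to 426 lower (393) at NM day 28 against PBS, 252 to 656 higher (522) and 66 to 718 lower (453) at NM day 1 against PBS, and 225 to 628 higher (470) and 394 to 775 lower (680) between the NM days. Only the 6 libraries gave 212 lower at NM day 28 against PBS, and the filter of 5 FPKM gave 408 lower between the NM days. Total depth is not known, so no limit from counting can be given.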
